A study of Drosophila melanogaster with 6 samples.

Results

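RNA from indirect flight muscle (IFM) in which SF1 had been knocked down was compared directly with RNA from IFM in which Hrb87F had been knocked down. Of the 6 Drosophila melanogaster libraries of the series, 4 entered the comparison: SF1-IR replicates 1 and 2 (Mef2-Gal4 / SF1-RNAi, GD5176) and Hrb87F-IR replicates 1 and 2 (Mef2-Gal4 / Hrb87F-RNAi, TRiP.JF01757). No WT library was used, so each difference is between the knockdowns and does not say which of them departed from wild type. All 4 libraries carried Mef2-Gal4, which drives the hairpin in every muscle of the animal, and all came from pupae grown at 27 °C and dissected 72 h after puparium formation (APF). Poly A RNA of the pooled flight muscles of many flies was sequenced for each library. The sources do not say whether the replicates came from separate crosses, so p-values measure the spread between these samples, which may be technical. The hairpins come from different collections, so the stock background cannot be told apart from the knockdown.

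SF1 binds the branch point of an intron when the early spliceosome assembles, beside the U2AF proteins on the polypyrimidine tract and the 3′ splice site. It is later displaced when U2 snRNP pairs with the branch point. Hrb87F is an hnRNP A/B family protein that coats nascent transcripts and influences which splice sites are used. IFM is a fibrillar, stretch-activated muscle that expresses particular isoforms of many sarcomere genes, and at 72 h APF its myofibrils are maturing.

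Values are counts per exon bin: each exon is divided wherever some transcript of the gene starts or ends an exon. For gene expression the bins were summed per gene and given as CPM, the counts of a gene for every 1000000 counts of the library after TMM scaling, a correction for library composition. For exon use, a single bin was compared with the other bins of its gene. Differences are on the log2 scale and were coded as SF1-IR minus Hrb87F-IR, so a positive value is higher in SF1-IR, and SE is its standard error. A gene was called at a Benjamini-Hochberg adjusted p under 0.01 in edgeR's quasi-likelihood test, and a bin at an unadjusted p under 0.01. Exon-bin counts summed to between 63393347 and 69600960 per library, and between 10175 and 11675 genes had at least 10 counts. Across genes, log2 CPM correlated at 0.919 between the SF1-IR replicates and at 0.960 between the Hrb87F-IR replicates. Between the knockdowns it correlated at 0.956 for the libraries numbered 1 and at 0.951 for those numbered 2. Summed testis markers stood at 6.79 and 82.5 CPM in SF1-IR and at 3.92 and 21.7 CPM in Hrb87F-IR, high in the libraries numbered 2 of either knockdown, and 0 of 9 tested markers were called. Summed neuron markers lay between 478 and 646 CPM and glia markers between 448 and 501 CPM, with no member called. Trachea markers lay between 153 and 176 CPM and cuticle markers between 481 and 558 CPM, also with no call. Tendon, haemocyte, midgut and sex marker lists had no called member either. Of the 6 tested fat body markers only Lsp2, a larval storage protein, was called, at 110 and 118 CPM in SF1-IR and 56.0 and 55.6 CPM in Hrb87F-IR.

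Each targeted gene was lower in the libraries of its own knockdown, but neither difference was called. Hrb87F stood at 28.7 and 30.8 CPM in SF1-IR and at 15.5 and 18.9 CPM in Hrb87F-IR. The groups did not overlap, and the log2 difference was 0.79 (SE 0.14, adjusted p = 0.0357), which missed the threshold of 0.01. SF1 stood at 28 and 20.8 CPM in SF1-IR and at 33.4 and 32.7 CPM in Hrb87F-IR. That difference of -0.44 (SE 0.17, adjusted p = 0.218) was not called either. No bin of SF1 or Hrb87F was called. The largest contrast within Hrb87F was bin 7, a first exon that is partly coding, with 190 and 318 counts in SF1-IR against 44 and 98 in Hrb87F-IR (log2 relative use 1.00, unadjusted p = 0.012). The strongest difference in a genotype marker was in y, the yellow pigmentation gene. It stood at 5.76 and 6.93 CPM in SF1-IR and at 83.2 and 77.6 CPM in Hrb87F-IR (-3.66, SE 0.15, adjusted p = 0.000338). TRiP stocks carry a yellow+ marker beside the hairpin, and the part of the stock in this difference was not tested. The other marker genes w, v and Dcr-2 had differences of 0.18, 0.04 and -0.05, none of them called.

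Expression differed between the knockdowns in 207 of 11210 tested genes. Of these, 155 (1.38%) were higher in SF1-IR and 52 (0.464%) were lower. At an adjusted p under 0.05 the counts were 354 (3.16%) and 271 (2.42%). The differences upward were also larger, since 67 genes were over 4-fold higher in SF1-IR and 9 were over 4-fold lower. The median over all tested genes was 0.07. Of the 206 called genes with a mean log2 CPM of at least 1, all 206 had both SF1-IR libraries on the same side of both Hrb87F-IR libraries, as did 49.3% of all tested genes. Leaving out a library left an arm of 1, whose spread was taken to be that of the other pair, and the number of calls depended on which library it was. With the spread of the SF1-IR pair alone, that is without Hrb87F-IR replicate 1 or without Hrb87F-IR replicate 2, no gene was called by edgeR, with 1270 and 1726 genes at an unadjusted p under 0.05. Without SF1-IR replicate 1 the counts were 104 and 35, and without SF1-IR replicate 2 they were 432 and 231. In each of these 4 refits all 207 genes kept their sign. The lack of overlap between the groups in 206 of them largely fixed that in advance. DESeq2 called 449 genes in each direction, among them all 207.

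**Figure D1:**
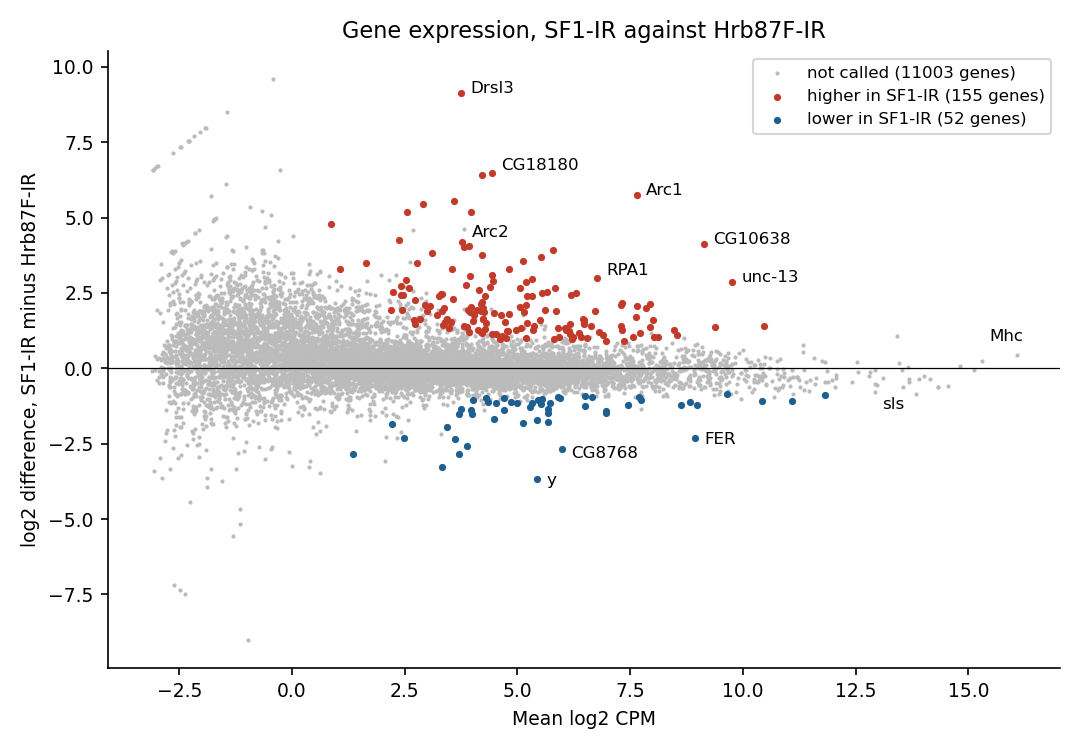
Each point is a tested gene, with its mean log2 CPM on the horizontal axis and its log2 difference (SF1-IR minus Hrb87F-IR) on the vertical axis. The 155 genes higher in SF1-IR (red) reach further from 0 than the 52 lower genes (blue), with Drsl3, CG18180, Arc1, Arc2 and CG10638 at the top and y at the bottom, while grey genes were not called.

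Arc1, a retrotransposon-derived capsid gene that packages its own mRNA and is best known from neurons and metabolism, showed one of the widest gaps. It stood at 392 and 400 CPM in SF1-IR and at 6.09 and 8.49 CPM in Hrb87F-IR, a difference of 5.76 (SE 0.20, adjusted p = 0.000295). Its relative Arc2 stood at 24.7 and 27.4 CPM against 1.24 and 1.58 CPM (4.20, SE 0.19). Between them on chromosome arm 2R lies CR10102, which stood at 13.6 and 15.7 CPM in SF1-IR and at 0.287 and 0.374 CPM in Hrb87F-IR (5.46). Each of these neighbours was therefore high in both SF1-IR libraries, with no overlap between groups.

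Other genes at the top of the list came from several families. Drsl3, a relative of the antifungal peptide drosomycin, had 1678 and 2016 counts in SF1-IR and 4 and 2 counts in Hrb87F-IR, or 26.2 and 27.4 CPM against 0.0637 and 0.0288 CPM. Its fitted difference of 9.15 depends on the prior count added to such low values. Of the 13 tested antimicrobial peptide genes it was the only one called. The list had a median of 2.25 from genes of few counts, so the difference in Drsl3 was not matched by calls in its family. CG10638 stood at 1010 and 1125 CPM in SF1-IR and 63.9 and 59.4 CPM in Hrb87F-IR (4.11, SE 0.13, adjusted p = 0.000283). It overlaps asRNA:CR43868 (105 and 104 against 7.75 and 5.86 CPM), and reads of overlapping genes cannot be told apart here. CG18180 stood at 42.1 and 43.6 CPM against 0.351 and 0.605 CPM (6.47). CG2065 stood at 27.1 and 33.8 CPM against 0.701 and 0.964 CPM (5.19). Among the remaining genes of the top 12, lncRNA:CR43144 stood at 40.2 and 32.6 CPM against 0.653 and 0.202 CPM (6.43). Taf12L, a TAF12 paralogue, stood at 20.4 and 26.8 CPM against 0.383 and 0.605 CPM (5.57). The testis markers were high in the libraries numbered 2, in which Taf12L was also the higher of each pair, and their part in its difference was not tested. The receptor gene mthl8 was at 12.5 and 10.3 CPM against 0.383 and 0.245 CPM (5.18). Ote, which encodes the inner nuclear membrane protein Otefin, was at 10.5 and 9.12 CPM against 0.319 and 0.691 CPM (4.27).

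A synaptic vesicle priming factor, unc-13 on chromosome 4, was among the most abundant of the called genes. It stood at 1725 and 1330 CPM in SF1-IR and at 211 and 211 CPM in Hrb87F-IR (2.86, SE 0.16, adjusted p = 0.000611). Another gene of the vesicle fusion machinery, Snap25, stood at 304 and 206 CPM against 56.6 and 62.2 CPM (2.10, SE 0.20). Both were named after their values were seen. None of the 7 tested neuron markers was called, and brp, the active-zone scaffold, was at 105 and 81.7 CPM against 111 and 106 CPM. The 3 noncoding genes that overlap unc-13 were each called in the same direction: CR43361 (2.54), asRNA:CR44029 (2.45) and asRNA:CR43425 (2.19). In the counts per gene CR43361 and asRNA:CR44029 turned to -0.45 and -0.64, so their calls cannot be told apart from the reads of unc-13.

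**Figure D2:**
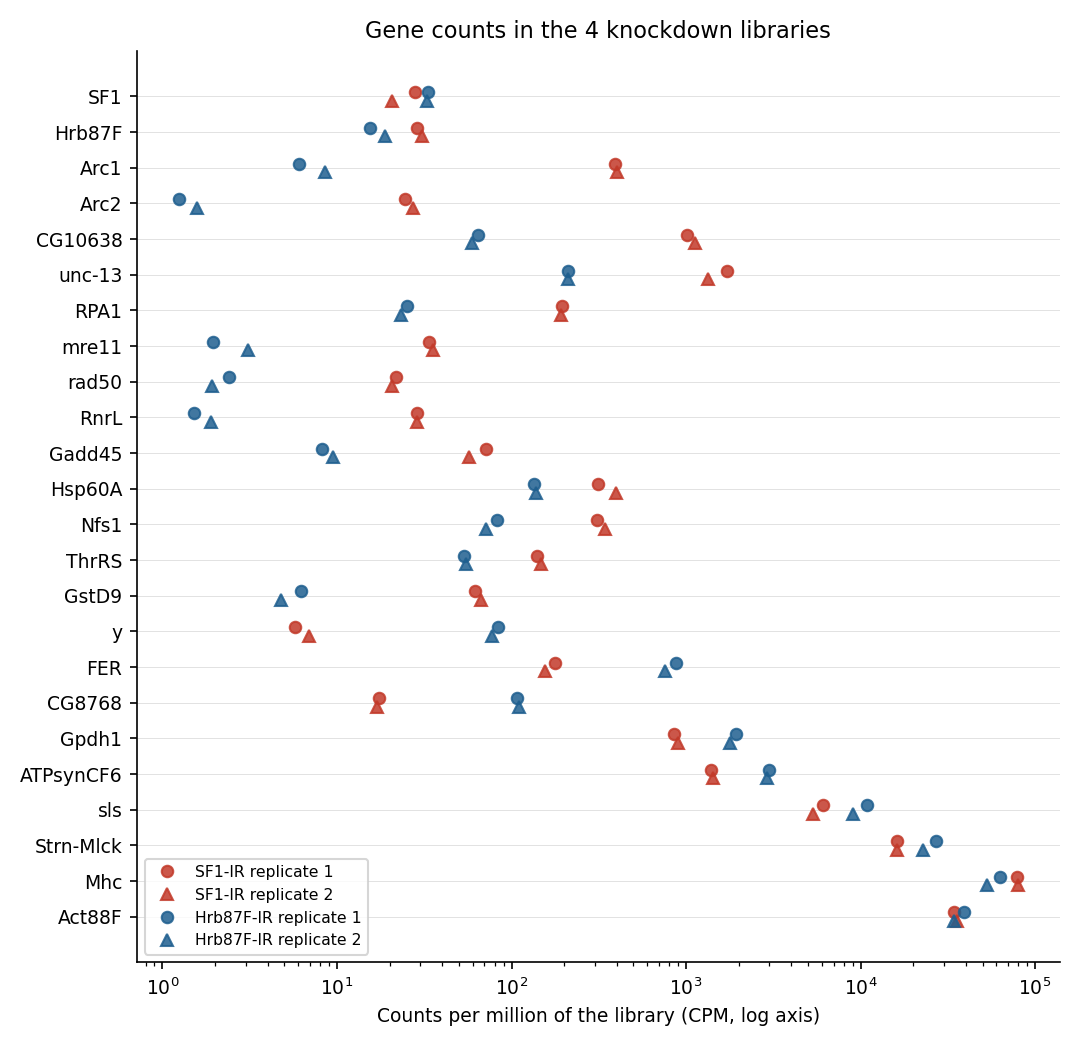
CPM on a log axis for 24 genes, each with 4 points: SF1-IR in red, Hrb87F-IR in blue, circles for replicate 1 and triangles for replicate 2. SF1-IR lies above Hrb87F-IR by far for Arc1 (392 and 400 CPM against 6.09 and 8.49 CPM) and CG10638, below it for y, FER and CG8768, and close to it for Act88F.

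DNA repair held the most called genes of the lists described. The list of 38 tested members was put together after the values were seen, so its counts are a description. Of these, 11 were higher in SF1-IR and 0 were lower, against 1.38% and 0.464% of all genes, and 28 had a positive difference. The list median was 0.86, beside 0.07 over all tested genes. The members that were higher covered several kinds of repair. RPA1, the large subunit of the single-strand binding complex, stood at 195 and 193 CPM in SF1-IR and 25.0 and 23.1 CPM in Hrb87F-IR (3.01, SE 0.12). RnrL, the large subunit of ribonucleotide reductase, stood at 28.6 and 28.6 CPM against 1.51 and 1.90 CPM (4.06, SE 0.18). The break-end nuclease partners mre11 (33.5 and 35.3 against 1.96 and 3.10 CPM) and rad50 (21.6 and 20.7 against 2.41 and 1.91 CPM) differed by 3.76 and 3.29. Their partner nbs, at 1.23, had an adjusted p of 0.017 and was not called. The end-joining pair Irbp, which encodes Ku70 (10.9 and 9.51 against 1.24 and 1.41 CPM), and Ku80 (17 and 17 against 3.55 and 2.60 CPM) differed by 2.94 and 2.46. Lesion-specific genes were also higher: gkt, a tyrosyl-DNA phosphodiesterase, by 2.04, the nucleotide excision factor Xpc by 1.90, the photolyase phr by 1.89, the ligase DNAlig3 by 1.55 and the alkyltransferase agt by 1.39. The damage kinase tefu, which encodes ATM, was the member closest to a call in the other direction (-0.66, adjusted p = 0.0474).

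Some mitochondrial chaperones and proteases were higher in SF1-IR, in a list also drawn up after the values were seen. Of 15 tested members 5 were higher and 0 lower, beside 1.38% and 0.464% of all genes, and the median was 0.50. The other 10 were not called, and HtrA2, Pink1 and ClpP had differences of -0.49, -0.37 and -0.02. The protease subunit Afg3l2 stood at 944 and 990 CPM in SF1-IR and at 398 and 356 CPM in Hrb87F-IR (1.36, SE 0.11, adjusted p = 0.00256). The chaperonin Hsp60A stood at 313 and 396 CPM against 134 and 139 CPM (1.38, SE 0.14). The matrix protease Lon differed by 1.17, the rhomboid protease rho-7 by 1.03 and the chaperone Trap1 by 0.92. Of 15 tested genes that make iron-sulfur clusters and haem, listed after the values were seen, 5 were higher and 0 lower (1.38% and 0.464% over all genes), with a median of 0.30. Nfs1, the cysteine desulfurase that supplies the sulfur, stood at 308 and 344 CPM against 82.4 and 71.3 CPM (2.08, SE 0.13). The haem enzymes Coprox and FeCH, and the cluster assembly genes bcn92 and Nubp1, differed by 1.83, 1.05, 1.10 and 1.14. Alas, the first enzyme of haem synthesis, went the other way at -0.83 (adjusted p = 0.0121) and was not called.

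Detoxification genes had calls in both directions. Among 123 tested glutathione transferases, cytochromes P450 and UDP-glycosyltransferases, taken by their names after the values were seen, 9 were higher and 1 was lower, against 1.38% and 0.464% over all genes, and the median was 0.12. GstD9 stood at 61.6 and 67.0 CPM in SF1-IR and 6.21 and 4.75 CPM in Hrb87F-IR (3.55, SE 0.17). Cyp6a20 (3.82), Ugt50B3 (3.11) and Cyp9c1 (2.41) had differences of like size. The lower gene, Ugt36D1, stood at 140 and 146 CPM against 282 and 265 CPM (-0.94, SE 0.11). The summed CPM of the list was lower in SF1-IR, at 18330 and 16920 against 27370 and 25220 CPM.

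The integrated stress response is a translation control pathway in which phosphorylated eIF2 lowers general translation and favours certain mRNAs. Of its 8 tested genes 3 were higher in SF1-IR and 0 lower, where 1.38% and 0.464% of all genes were, with a median of 0.66. The list named 9 genes, and crc was not matched to a counted gene, so it was not tested. Gadd45, a stress-induced signalling gene, stood at 71.3 and 57.2 CPM against 8.19 and 9.44 CPM (2.86, SE 0.16). Irbp18, the bZIP partner of Xrp1, stood at 29.3 and 29.2 CPM against 10.3 and 10.5 CPM (1.49). Thor, the translation repressor 4E-BP, stood at 105 and 85.3 CPM against 37.4 and 41.1 CPM (1.28). The transcription factor Xrp1 itself, at 712 and 582 against 394 and 347 CPM, missed the threshold (0.80, adjusted p = 0.0309). The transcriptional coactivator mbf1, named after its value was seen, stood at 399 and 337 CPM against 91.1 and 94.7 CPM (1.99, SE 0.13). The heat shock list had no call among 21 tested members, nor had the endoplasmic reticulum chaperones among 18 and the proteasome among 43, and their medians were 0.33, -0.14 and 0.00. The nearest to a call among them was the small chaperone Hsp23 (22.6 and 25.4 against 14.1 and 12.8 CPM, adjusted p = 0.0245).

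Aminoacyl-tRNA synthetases, which charge tRNAs with amino acids, had 4 of 33 tested members higher and 0 lower, beside 1.38% and 0.464% of all genes. Of the 33, 27 had a positive difference (median 0.43), as did 6255 of all 11210 tested genes. SerRS stood at 22 and 26.1 CPM against 5.61 and 7.63 CPM (1.86), TrpRS at 63.5 and 71.9 CPM against 20.7 and 24.1 CPM (1.6), and ThrRS at 140 and 147 CPM against 53.6 and 55.2 CPM (1.40). AlaRS differed by 1.02. Of 80 tested cytoplasmic ribosomal protein genes 69 were positive, by small amounts (median 0.24). Of the 69 tested genes of the mitochondrial ribosome none was called (median -0.23).

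Of the splicing lists only the core spliceosome held called genes. Of 19 tested core spliceosome genes 2 were higher and 0 lower, beside 1.38% and 0.464% of all genes, and 17 were positive (median 0.27). Both belong to the U4/U6.U5 tri-snRNP: Prp6, at 24.9 and 25.5 CPM against 8.35 and 6.58 CPM (1.75), and Prp31, at 34.5 and 41.3 CPM against 16.8 and 15.5 CPM (1.23). The helicase Brr2, named after its value was seen, stood at 107 and 104 CPM against 42.3 and 34.5 CPM (1.46). The DEAD-box helicase gene Rm62 stood at 380 and 370 CPM against 178 and 184 CPM (1.05). With 1.38% and 0.464% of all genes called, few calls would be expected in the other splicing lists. None of the 13 branch point and 3′ splice site genes was called (median -0.09), nor any of 13 hnRNP genes (0.21), 9 SR protein genes (0.24) or 7 muscle splicing regulators (-0.06). Among those regulators bru1, the CELF-family factor of flight muscle isoforms, stood at 574 and 504 CPM in SF1-IR and 965 and 847 CPM in Hrb87F-IR (-0.75, adjusted p = 0.0267).

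Genes lower in SF1-IR were fewer and differed less. FER, a non-receptor tyrosine kinase gene, stood at 177 and 156 CPM in SF1-IR and 875 and 762 CPM in Hrb87F-IR (-2.30, SE 0.13, adjusted p = 0.000706). It overlaps the called asRNA:CR46145, whose reads cannot be told apart from its own. CG8768 stood at 17.4 and 17 CPM against 108 and 110 CPM (-2.67, SE 0.11). Su(var)3-3, a histone H3K4 demethylase, stood at 3.70 and 4.80 CPM against 25.9 and 24.4 CPM (-2.56). The sorbitol dehydrogenase gene Sodh2 was at 3.87 and 4.15 CPM against 20.9 and 19.7 CPM (-2.34). It overlaps asRNA:CR45195 (-2.32), whose sign turned to 2.20 in the counts per gene. Further names among the 12 largest negative differences were sordd2 (-3.28), CG32196 (-1.94), the cuticle protein gene Ccp84Af (-1.83) and CG32278 (-1.81). A pair of mitochondrial tRNA genes, mt:tRNA:Tyr-GTA (-2.84) and mt:tRNA:Cys-GCA (-2.83), also belonged to them.

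Most genes of energy metabolism had negative differences, with few calls. Glycolysis and the glycerol phosphate shuttle had 13 of 14 tested genes below 0 and a median of -0.54, beside 0.07 over all genes. Gpdh1, the cytosolic glycerol-3-phosphate dehydrogenase that insect flight muscle relies on, was the call (851 and 896 against 1933 and 1790 CPM, -1.09, SE 0.11, adjusted p = 0.00427). At an adjusted p under 0.05, 6 members were lower and 0 higher, against 2.42% and 3.16% over all genes. The rate-controlling kinase Pfk (1072 and 1165 against 2379 and 1955 CPM, adjusted p = 0.0149) and Pglym78 (833 and 913 against 1571 and 1436 CPM, adjusted p = 0.0165) came next. In the phosphagen system, the arginine kinase gene Argk1 went the other way, at 1947 and 2147 against 828 and 729 CPM (1.39, SE 0.12), and the malic enzyme gene Men-b was lower (288 and 283 against 634 and 598 CPM, -1.11). Both were named after their values were seen.

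Nuclear genes of the respiratory chain had 60 of 79 tested members below 0 (median -0.30). Calls were ATPsynCF6, an ATP synthase coupling subunit (1394 and 1421 against 2997 and 2904 CPM, -1.07, SE 0.10), and the cytochrome c gene Cyt-c-p (2470 and 2660 against 4912 and 4479 CPM, -0.87, SE 0.11). At an adjusted p under 0.05, 13 were lower and 0 higher, beside 2.42% and 3.16% of all genes. Members with differences above 1, such as COX4L (0.484 and 4.44 against 0.0319 and 0.648 CPM), were highest in SF1-IR replicate 2, the library with the most testis marker counts, and were not called. The 8 mitochondrially encoded genes did not go below the others (median 0.16, 0 called). Their lowest p belonged to mt:ND5, at 1125 and 1127 CPM against 759 and 830 CPM (adjusted p = 0.0501).

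**Figure D3:**
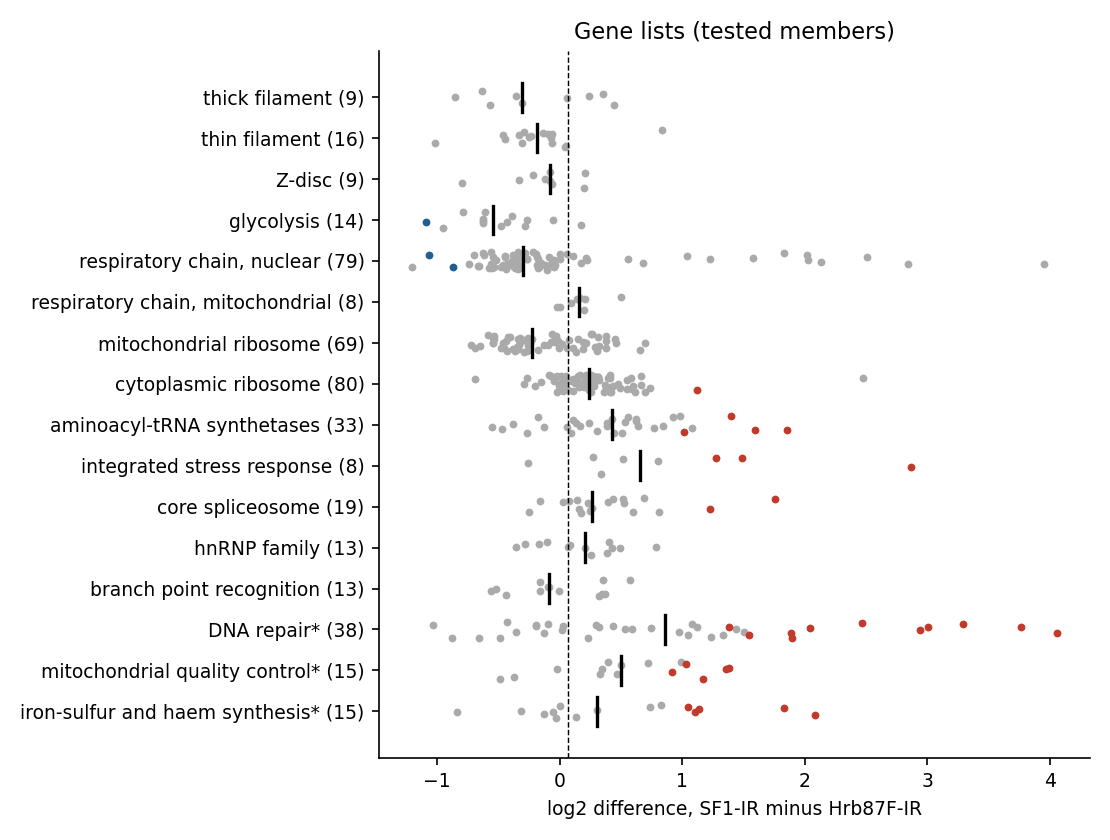
Log2 difference (SF1-IR minus Hrb87F-IR) of each tested member of 16 gene lists, with the number of members in brackets. Red members were higher and blue members lower at the threshold, grey members were not called, black bars mark list medians, the dashed line marks the median of all genes (0.07), and asterisks mark the 3 lists drawn up after the values were seen. Medians run from -0.54 for glycolysis to 0.86 for DNA repair.

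None of the tested sarcomere genes was called at the gene level. Over all genes 1.38% were called higher and 0.464% lower, so lists this small would hold few calls. The giant elastic protein gene sls, whose isoforms include kettin and Sallimus, stood at 6111 and 5364 CPM in SF1-IR and 10850 and 9034 CPM in Hrb87F-IR (-0.79, SE 0.13, adjusted p = 0.0276). Strn-Mlck, a titin-like myosin light chain kinase gene, stood at 16100 and 16200 CPM against 27050 and 22920 CPM (-0.63, SE 0.12, adjusted p = 0.0383). The M-line gene Obsc stood at 10540 and 10500 CPM against 21380 and 16590 CPM (-0.85, SE 0.14, adjusted p = 0.0271). In all 3 genes the groups did not overlap. Mhc, the myosin heavy chain, stood at 78860 and 79630 against 63040 and 53300 CPM (0.45, adjusted p = 0.0966). The flight muscle actin Act88F (34220 and 35720 against 38970 and 34210 CPM) had overlapping groups. Thick filament (9 tested), thin filament (16) and Z-disc genes (9) had medians of -0.31, -0.18 and -0.08. At an adjusted p under 0.05, which 2.42% of all genes passed as lower and 3.16% as higher, 3 thick filament genes and 1 Z-disc gene were lower, and the troponin C gene TpnC41C was higher (435 and 454 against 214 and 284 CPM). Calcium handling genes (8 tested, median -0.15), attachment genes (11, -0.05) and muscle transcription factors (9, -0.19) had no call. CaMKII, at 530 and 397 CPM against 879 and 818 CPM, had an adjusted p of 0.0357. The ecdysone genes had a median of 0.05 and no call among 8. In these bulk samples a change in RNA per fibre cannot be told apart from a change in the share of fibres.

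Exon use was called different in 700 of 51426 tested bins, at an unadjusted p under 0.01. Of these, 500 (0.972%) were used more in SF1-IR and 200 (0.389%) more in Hrb87F-IR. With no true difference, a share of about 0.01 of all tested bins would be expected to pass, both directions together. Many of the 700 calls may therefore be due to chance, and a single call is weak evidence unless it also passed adjustment. After Benjamini-Hochberg adjustment, 194 and 78 stayed under 0.05. In 695 of the 700 bins the shares of the gene's counts did not overlap between the groups, as in 19463 of all 51426 tested bins. Bins were called for a gap that is wide beside the spread, so this count adds no support to the calls. Called bins lay in 386 of 8356 genes with tested bins, and 53 of these genes had bins in both directions. Of the 171 called genes with tested bins, 31 also had a called bin. Without SF1-IR replicate 1 the counts of bins were 392 and 274, and without SF1-IR replicate 2 they were 689 and 303. Without Hrb87F-IR replicate 1 they were 279 and 95, and without Hrb87F-IR replicate 2 they were 289 and 114. A bin is measured against its own gene, so a gene with strongly changed bins pushes its other bins the opposite way.

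Introns that some transcripts keep were the class most often used more in SF1-IR. Such a retained-intron bin is an intron of one annotated transcript that lies inside an exon of another. Of 921 tested retained-intron bins, 60 (6.52%) were used more in SF1-IR and 4 (0.434%) more in Hrb87F-IR. Bins between alternative donors had 28 and 1 calls of 913 (3.07% and 0.110%), and bins between alternative acceptors had 21 and 7 of 1053 (1.99% and 0.665%). Skipped exons had 54 and 54 calls of 1628, or 3.32% in each direction. First exons had 1.29% and 0.273%, last exons 0.745% and 0.405%, and all other annotated bins 0.512% and 0.227%. By region, the 5′ UTR had 200 and 29 calls of 6601 bins (3.03% and 0.439%), the 3′ UTR 1.85% and 0.959%, and coding sequence 0.560% and 0.359%. Retained introns of the 5′ UTR had 41 of 467 bins used more in SF1-IR (8.78%) and 0 more in Hrb87F-IR. Counts set part of these shares, since among retained-intron bins with a mean of at least 1000 counts 27.8% were used more in SF1-IR, with 100 to 1000 counts 13.3%, and below 100 counts 2.28%. Over all bins the same steps were 2.02%, 1.20% and 0.541%.

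The 60 retained-intron bins used more in SF1-IR lay in 58 genes. Their summed CPM was 1204 and 1153 in SF1-IR against 492 and 481 in Hrb87F-IR. The median bin took 3.76% and 3.25% of its gene's exon-bin counts in SF1-IR against 0.959% and 1.08% in Hrb87F-IR. Pooled over all 921 retained-intron bins, however, the share was 9.98% and 9.32% in SF1-IR against 9.77% and 10.1% in Hrb87F-IR. The median share over the same 921 bins was 3.43% and 3.21% in SF1-IR against 2.83% and 2.73% in Hrb87F-IR, and their median log2 relative use was 0.20, beside 0.01 over all tested bins. Of the 921 bins, 332 had both SF1-IR shares above both Hrb87F-IR shares and 123 had both below. Over all 51426 tested bins these counts were 9957 and 9506. The pooled share, which the most abundant bins weigh on most, did not separate the groups while the median did. Without Hrb87F-IR replicate 1 the number of these bins fell from 60 to 37.

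**Figure D4:**
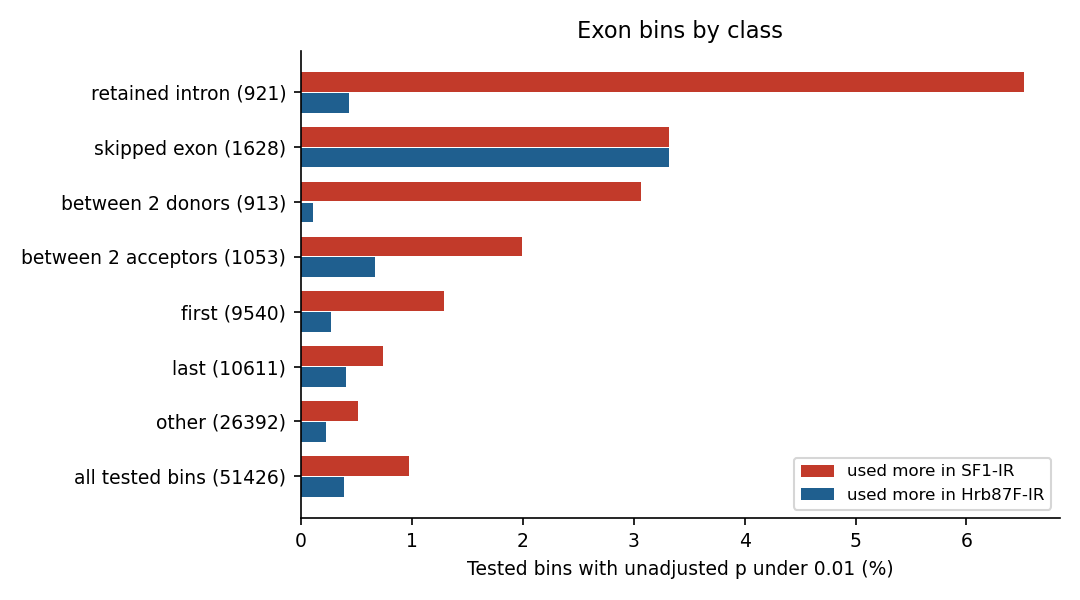
Percent of tested bins called at an unadjusted p under 0.01, by class, with the number of tested bins in brackets; red bars are bins used more in SF1-IR and blue bars bins used more in Hrb87F-IR. Retained introns have the longest red bar (6.52% against 0.434%), skipped exons have equal bars (3.32% each), and all tested bins stand at 0.972% and 0.389%.

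Single retained introns used more in SF1-IR are given here as examples. In ND-PDSW, a complex I subunit, bin 2 of 87 bases in the 5′ UTR took 16% and 12.6% of the gene's counts in SF1-IR against 2.29% and 2.46% in Hrb87F-IR (log2 relative use 2.58, SE 0.18, adjusted p = 1.07e-07). In ND-B17.2, another complex I subunit, bin 6 of 59 bases had 1995 and 2289 counts against 345 and 328 (2.43, SE 0.17). In Phb2, which encodes a prohibitin of the inner membrane, bin 3 had 630 and 566 counts against 53 and 68 (2.76, SE 0.23, adjusted p = 7.55e-10). The ATP synthase gene ATPsynF had 9.05% and 8.50% of its counts in bin 3, against 3.07% and 3.40% (1.44). The glycolytic gene Tpi had 6.39% and 5.16% in bin 3, against 1.55% and 1.61% (1.85). In the ribosomal protein genes RpS21 (bin 6, 8.31% and 8.50% against 2.86% and 3.13%) and RpL37A (bin 3, 0.875% and 0.678% against 0.132% and 0.112%) the log2 relative use was 1.49 and 2.67. In the helicase gene Rm62, bin 17 had 808 and 887 counts against 60 and 55 (2.77, SE 0.23, adjusted p = 7.26e-11), and mbf1 bin 4 had 1636 and 1724 against 133 and 110 (1.74). In yps, which encodes a Y-box RNA-binding protein, bin 3 took 4.18% and 4.82% against 0.843% and 0.768% (2.47). These bins were picked among those used more in SF1-IR, so their place above both Hrb87F-IR libraries follows from the choice. Phb2 and Rm62 were among the 10 bins of smallest p, and the other genes of this paragraph are examples picked after the values were seen.

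Wide gaps were also seen in some first exons and 5′ UTR exons. In tn, which encodes the TRIM-NHL protein thin needed for muscle integrity, bin 2 (chromosome arm 2R, 18989384 to 18989688 on BDGP6.22) is a 5′ UTR exon that some transcripts skip. It had 783 and 667 counts in SF1-IR against 8 and 2 in Hrb87F-IR (log2 relative use 7.17, SE 0.37, adjusted p = 1.36e-19), while tn as a gene stood at 640 and 626 against 723 and 612 CPM. In unc-13, bin 40 of the 5′ UTR had 1542 and 1853 counts against 34 and 7 (3.44, adjusted p = 2.67e-13), next to first exon bin 41 with 325 and 282 against 2 and 0. In Xrp1, a first exon, bin 4, had 1418 and 1139 counts against 88 and 119 (2.78, SE 0.23, adjusted p = 8.38e-09), or 3.11% and 2.67% of the gene against 0.356% and 0.493%. In wupA, the troponin I gene, the skipped 5′ UTR exon of bin 16 had 4198 and 3052 counts against 1213 and 1118 (2.04, adjusted p = 2.56e-10). Pdhb bin 3, in the 5′ UTR of a pyruvate dehydrogenase subunit gene, took 5.97% and 4.73% of the gene against 0.916% and 1.26% (2.29). CG10737 bin 3, between alternative donors, took 2.58% and 2.68% against 0.646% and 0.526% (2.16). RpS19a bin 3 had 487 and 413 counts against 23 and 33 (3.92). Each of these 5′ bins was higher in both SF1-IR libraries, which follows from their choice as bins used more there. At the other end of the transcript, bru1 bins 22 to 24, in the 3′ UTR, together took 6.98% and 5.70% of the gene against 1.05% and 1.19%. UQCR-11 bin 11 (2.46) and CG1674 bin 14 (2.55), both in last exons, were also used more in SF1-IR.

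Of the 200 bins used more in Hrb87F-IR, 89 were coding, and coding bins were called in this direction at 0.359%, beside 0.389% of all bins. Asph bin 13 had 123 and 76 counts in SF1-IR against 488 and 434 in Hrb87F-IR (-2.57, SE 0.21, adjusted p = 3.70e-12). In 14-3-3zeta, a phosphoprotein-binding adaptor with alternative internal exons, the skipped coding exon of bin 13 had 904 and 967 counts against 3225 and 3481 (-1.86, SE 0.18, adjusted p = 5.03e-09). FER bins 7 and 8 together took 9.86% and 8.87% of the gene in SF1-IR against 20.3% and 21.2% in Hrb87F-IR, on top of the lower level of the whole gene in SF1-IR. Bin 25 of unc-13 was called at -1.6 although its counts were higher in SF1-IR, at 3960 and 3107 against 1430 and 1441, because the rest of the gene was higher still. Bin 23 of unc-13 (-3.23) and Rm62 bin 5 (-1.43) also lie in genes that were higher as a whole. Bin 4 of FBgn0044510, for which no annotation was matched, had 134 and 107 counts against 639 and 735 (-3.32).

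Sarcomere genes carried many called bins. Over the thick filament, thin filament and Z-disc lists 72 of 598 tested bins (12%) were used more in SF1-IR and 16 (2.68%) more in Hrb87F-IR. These bins are deeply counted (median 3216 counts, against 110 over all bins), and among all bins of at least 1000 counts the shares were 2.02% and 0.624%. Thick filament genes had 37 and 9 calls of 220 bins, thin filament genes 20 and 4 of 198, and Z-disc genes 15 and 3 of 180. Calcium handling genes had 11 and 1 of 214, and the nuclear respiratory chain 18 and 3 of 320. Branch point and core spliceosome genes had 0 calls of 54 and of 58 tested bins. With 0.972% and 0.389% of all bins called, few calls would be expected among so few bins.

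Strn-Mlck had the most called bins of the sarcomere genes, all in one direction. Of its 38 tested bins 17 were used more in SF1-IR and 0 more in Hrb87F-IR, and 16 of those lay among bins 1 to 22, a stretch marked out after the values were seen. That stretch stood at 636 and 569 CPM in SF1-IR and 479 and 414 CPM in Hrb87F-IR, or 3.95% and 3.51% of the gene against 1.77% and 1.81%. Bins 23 to 34, which hold most of the gene's counts, stood at 15440 and 15590 CPM against 26520 and 22480 CPM. The lower level of Strn-Mlck in SF1-IR thus lay in bins 23 to 34, while the sparse stretch was higher in both SF1-IR libraries. The smallest p belonged to bin 17, a coding bin with 4602 and 4795 counts against 3213 and 2773 (1.22, SE 0.19, adjusted p = 3.97e-06). Bin 28, outside the stretch, lost its call in several refits (replicate left out, no filter, limma).

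In sls, 5 of 43 tested bins were used more in SF1-IR and 1 more in Hrb87F-IR. The skipped coding exon of bin 10 had 3237 and 3479 counts against 2370 and 2603, or 0.827% and 0.883% of the gene against 0.348% and 0.415% (1.17, SE 0.23, adjusted p = 0.000545). Bin 26, another skipped coding exon, had 791 and 621 counts against 488 and 447 (1.34, SE 0.29). Both had more counts in SF1-IR although the whole gene had fewer. Bin 13, of 5139 bases, took 13.3% and 10.7% of the gene against 7.88% and 8.11% (0.59), and bins 27 (0.72) and 44 (0.77) were called likewise. Bin 33 took 1.29% and 1.48% against 1.99% and 2.13% (-0.57). After adjustment only bins 10 and 26 of sls stayed under 0.05.

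Both directions occurred within other sarcomere genes. In bt, the projectin gene on chromosome 4, bins 35 to 37 took 0.926% and 0.991% of the gene in SF1-IR against 0.249% and 0.241% in Hrb87F-IR, while bins 9 to 11 took 0.257% and 0.282% against 0.900% and 0.631%. In Zasp52, a PDZ-LIM protein gene of the Z-disc, bin 10 in a last exon had 2404 and 1621 counts against 850 and 587 (1.55), and the skipped coding exon of bin 4 had 1291 and 1180 against 3919 and 3530 (-1.53, SE 0.17, adjusted p = 1.31e-09). Zasp66 bin 8 took 4.92% and 5.47% of the gene against 12.9% and 12.6% (-1.29). In the myofilin gene Mf, bin 2 took 0.965% and 0.780% against 2.06% and 2.68% (-1.44), and bin 11, a last exon, 1.04% and 0.929% against 0.543% and 0.383% (1.10). In the tropomyosin gene Tm1 the alternative last exons moved apart: bin 31 had 24506 and 30186 counts against 52721 and 54182 (-0.97, adjusted p = 0.000264), and bin 32 had 72176 and 72706 against 48538 and 51262 (0.54). None of these genes was called as a whole.

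Other sarcomere bins were called one way only. Mhc had 8 of 37 tested bins used more in SF1-IR, all of low share, such as first exon bin 4 with 0.0206% and 0.0161% of the gene against 0.00900% and 0.00945% (0.99). RyR, the sarcoplasmic calcium release channel, had 5 of 38, among them the coding bin 19 with 856 and 1115 counts against 251 and 185 (2.44, SE 0.34, adjusted p = 4.77e-07). Fhos bin 8 (1.52), Mlp60A bin 3 (1.47), Act79B bin 2 (1.32), Prm bin 4 (0.98) and up bin 3 (0.64) were used more in SF1-IR. In Hrb87F-IR, Mlc1 bin 1 in the 3′ UTR was used more (3250 and 2421 against 8175 and 8284 counts, -1.02), as was Mlc2 bin 3 (-0.48). The call in tmod bin 16 rested on 1 and 0 counts against 28 and 24. After adjustment, up bin 3 (adjusted p = 0.0690), Mlc2 bin 3 (0.498) and tmod bin 16 (0.0759) did not stay under 0.05.

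**Figure D5:**
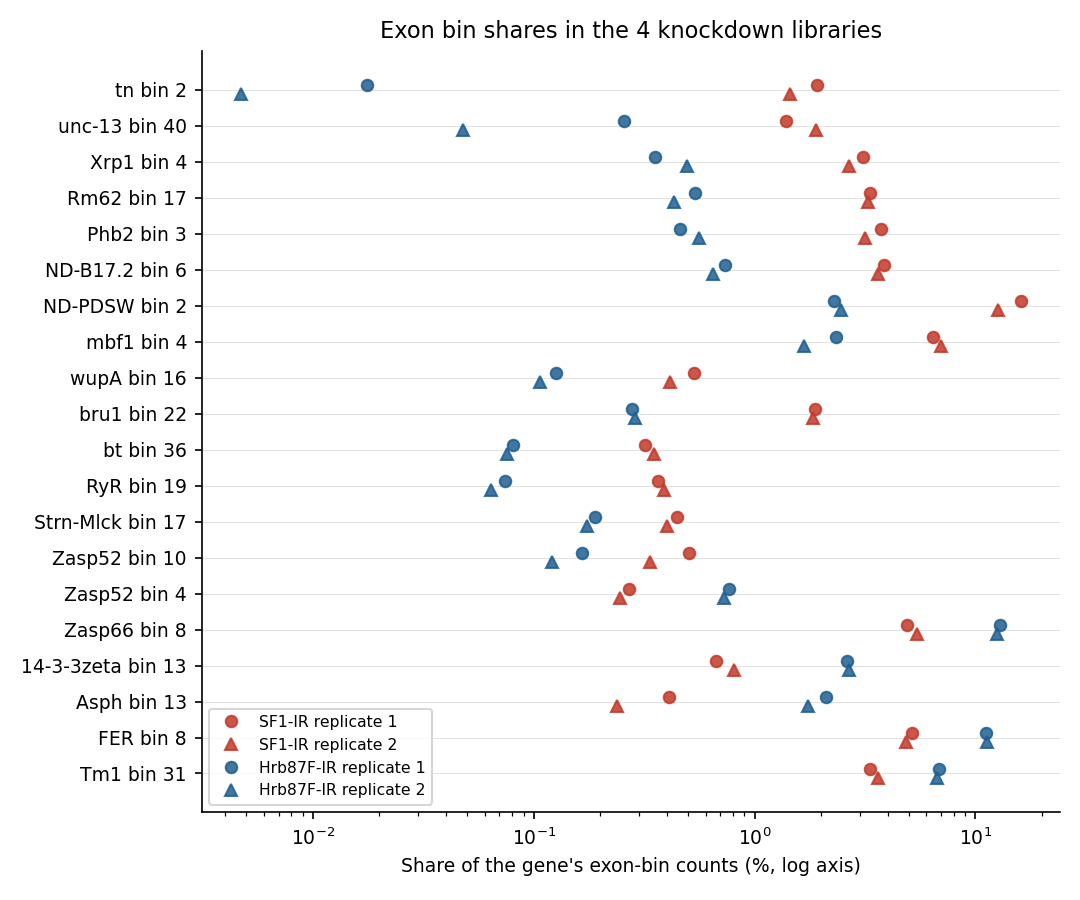
Share of each gene's exon-bin counts that falls in a given bin, in percent on a log axis, for 20 called bins in the 4 libraries (SF1-IR red, Hrb87F-IR blue, circles replicate 1, triangles replicate 2). The first 14 bins lie higher in SF1-IR, most of all tn bin 2, and the last 6 lie higher in Hrb87F-IR, with no overlap between the groups.

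By chromosome, bins on chromosome 4 were called most often, with 35 and 15 of 920 tested bins (3.80% and 1.63%). This small chromosome holds unc-13, bt, CaMKII and CG1674. On the larger arms the shares used more in SF1-IR ran from 0.799% on X to 1.04% on 3L. At the gene level, 4 of 98 tested genes of chromosome 4 were higher in SF1-IR, and all 4 were unc-13 and the noncoding genes that overlap it.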

How the data were processed

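Poly A RNA of dissected IFM was sequenced in 6 libraries, of which 4 were used. The authors mapped reads with STAR (2.7.3a), used SAMtools (1.1) and counted with featureCounts (Subread 2.0.0) on BDGP6.22, per exon bin and per gene. The deposited values are raw counts without normalization. A read over several bins is counted in each, and whether strand was used in counting is not given in the sources used here. The deposited fold changes and p-values of each knockdown against WT were not used, nor were 8 further per-sample columns. From those tables only the bin positions were read, deposited as coordinates (an "other" unit), after leaving out 78 broken and 21 repeated lines. Bins (77774) were summed for 16428 genes, and 16335 of these had a symbol. Bin classes came from the Ensembl annotation of BDGP6.54, whose exon edges matched 99.9% of those checked, and no position was moved between releases.

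Genes were tested with edgeR (4.0.16, glmQLFit with robust fitting, TMM, filterByExpr) and bins with diffSpliceDGE, on the 4 libraries with no covariate, in R 4.3.3. Gene p-values were adjusted by Benjamini and Hochberg. DEXSeq was not used. The steps were tested on simulated data. Shares of bins are of the summed bin counts of the gene. DESeq2 (1.42.0) and limma (3.58.1) served as alternatives, with other scalings, filters, thresholds and left-out libraries. Named genes were the targets, genotype markers, Arc1, sls and Strn-Mlck, the 12 largest differences in each direction among called genes of at least 1 log2 CPM with non-overlapping groups, and the called or lowest-p members of the lists. Named bins were the 10 of smallest p in each direction and those of sarcomere genes. Any other gene or bin was picked after its values were seen. The comparison, its genes and its lists were chosen with earlier results of these data known, and 4 lists (DNA repair, mitochondrial chaperones and proteases, iron-sulfur and haem synthesis, detoxification) were made after the values were seen. No sequence is shown, since no sequence of the build was used here. Results for a withheld item are not reported here.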

Additional observations from a re-analysis of the deposited data

How the results depend on the processing

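All 207 calls kept their sign under RLE and upper quartile scaling, DESeq2, no filter, the replicate block and all 6 libraries in the fit. They also did so with each left-out library, which non-overlapping groups in 206 of them largely fixed in advance. In the counts per gene 193 of the 196 called genes that were tested kept it. Genes higher and lower in SF1-IR numbered 155 and 52 in the test as reported, 449 and 449 with DESeq2, 376 and 230 with at least 10 counts in every library, 254 and 131 with no filter, and 354 and 271 at an adjusted p under 0.05. With all 6 libraries in the fit 94 were lower. Leaving out a library gave 0 to 432 higher and 0 to 231 lower. Libraries of the same replicate number deviated together (r = 0.548 of their deviations from the group means). A principal component analysis, which finds the main axes of variation, was run on log2 CPM. PC1 (59.9% of variance) put the libraries numbered 1 at -39.0 (SF1-IR) and -68.8 (Hrb87F-IR), and those numbered 2 at 86.5 and 21.3. PC2 (27.8%) parted the knockdowns. With 2 pairs the libraries share only a number, and the labels do not say what it marks. With the replicate block 424 genes were higher and 300 lower, among them all 207, and bins numbered 603 and 253. Exon bins used more in SF1-IR and Hrb87F-IR numbered 500 and 200, with 194 and 78 at an adjusted p under 0.05, and limma gave 407 for Hrb87F-IR. Leaving out a library gave 279 to 689 and 95 to 303. The direction turned in the counts per gene for asRNA:CR45195 (2.20), CR43361 (-0.45), asRNA:CR44029 (-0.64) and Dcr-2 (0.000309), and with all 6 libraries for v (-0.0035). Over the left-out libraries it turned in genes that were no calls: Dcr-2 ran from -0.15 to 0.012, v from -0.35 (without Hrb87F-IR replicate 1; -0.12 without SF1-IR replicate 2) to 0.46, dj from -0.59 to 3.92, Mal-A1 from -0.22 (without SF1-IR replicate 1; -0.18 without Hrb87F-IR replicate 1) to 0.72, TpnC4 from -0.41 to 0.084, tn from -0.25 to 0.0093 and bt from -0.16 (without SF1-IR replicate 1; -0.12 without Hrb87F-IR replicate 2) to 0.24. Of all these only the noncoding genes were calls, and the cause was not tested. Groups of 2 cannot be checked for outlying samples.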
